A study of Homo sapiens with 12 samples.

Results

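The hypoxia response and glycolysis were followed through 40 genes in SH-SY5Y, a line from a human neuroblastoma that serves as a neuron-like model. They were 3 subunits of the hypoxia-inducible factors (HIF), 3 HIF prolyl hydroxylases, 12 other HIF targets, and 22 genes of glycolysis with its transporters and regulators. Gene expression had been measured on 12 Affymetrix arrays in 4 groups of 3. Per the labels, these were cells given fibrillar amyloid-β (Aβ, the peptide of Alzheimer plaques) with an incubation of 24 h, their 24 h controls, cells given oligomeric Aβ with an incubation of 6 h, and their 6 h controls. All groups were the same line, grown in D-MEM/F-12 medium. The dose and sequence of the peptide, what the controls received and the oxygen level are not given in the sources used here, nor whether the peptide was aged for those hours or the cells were exposed for them. Fibrils and oligomers also differed in their hours.

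Each gene was read from the probe set that carries its symbol alone and has the highest mean over the 12 arrays. Of the 40 genes, 38 had such a probe set, and 36 of these passed a filter on the mean level (log2 3.78, the median of all probe sets) and were tested among 11774 genes. EGLN2 and the glucose transporter gene SLC2A3 lay below the filter on all 12 arrays, with log2 signals of −0.36 to 3.49 and −2.18 to 3.73. CA9 and SLC16A3 were not analysed here. The 36 tested genes had a median log2 signal of 8.64 and a median standard error (SE) of a change between 2 groups of 0.11, against 7.40 and 0.13 for all genes tested. Of 17 genes with more than 1 kept probe set, all their probe sets had the same sign for 10 in the fibrillar comparison, 7 in the oligomeric one and 12 between the controls. All values below are log2 signals or differences of log2 signals. With 3 arrays a group, the number of arrays limits the precision, and since no label states that replicates were separate cultures, a p-value reflects the spread of these arrays, which may be technical.

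HIF is a pair of an oxygen-regulated α subunit (HIF1A or EPAS1) and the constant partner ARNT. In oxygenated cells the prolyl hydroxylases EGLN1, EGLN2 and EGLN3 mark the α subunit for capture by VHL and destruction, so HIF activity is set mainly at the protein and not at the mRNA. When oxygen or the hydroxylases' iron falls short, HIF accumulates and binds DNA at the letters ACGTG or GCGTG, raising genes for blood vessel growth, mitochondrial turnover, collagen hydroxylation and glycolysis, and also EGLN1 and EGLN3, which close a feedback loop. Glycolysis breaks glucose down to pyruvate and lactate, and many of its steps have several isoenzymes, of which HIF raises some more than others. In these arrays only mRNA was read, and fewer cells of a kind and less RNA per cell cannot be told apart.

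The sequences before the start sites of 5 of these genes are shown because the 3 HIF-responsive genes EGLN1, KDM3A and BNIP3 and the enzymes LDHA and ENO1 recur in the comparisons below. Each line is the 250 bases before the start in RefSeq on GRCh38.p14, 5′ to 3′ on the gene's strand, with every ACGTG or GCGTG on either strand (CACGT or CACGC when it lies on the other) in capitals.
EGLN1, chr1:231422288-231422537, minus strand: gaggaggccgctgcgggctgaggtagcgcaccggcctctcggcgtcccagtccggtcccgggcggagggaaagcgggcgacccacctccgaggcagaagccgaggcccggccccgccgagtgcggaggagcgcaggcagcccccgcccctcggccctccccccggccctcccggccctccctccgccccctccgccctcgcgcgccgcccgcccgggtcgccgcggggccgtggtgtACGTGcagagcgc
KDM3A, chr2:86441121-86441370, plus strand: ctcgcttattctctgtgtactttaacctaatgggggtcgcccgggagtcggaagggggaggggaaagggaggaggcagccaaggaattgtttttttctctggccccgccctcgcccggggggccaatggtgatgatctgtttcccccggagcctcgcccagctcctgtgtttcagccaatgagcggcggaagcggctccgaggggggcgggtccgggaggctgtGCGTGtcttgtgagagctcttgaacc
BNIP3, chr10:131981924-131982173, minus strand: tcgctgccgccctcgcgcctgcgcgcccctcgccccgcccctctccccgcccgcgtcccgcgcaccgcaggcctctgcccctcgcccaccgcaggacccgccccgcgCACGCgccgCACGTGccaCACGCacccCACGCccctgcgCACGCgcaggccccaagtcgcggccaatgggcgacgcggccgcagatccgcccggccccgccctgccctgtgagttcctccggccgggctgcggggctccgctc
LDHA, chr11:18394313-18394562, plus strand: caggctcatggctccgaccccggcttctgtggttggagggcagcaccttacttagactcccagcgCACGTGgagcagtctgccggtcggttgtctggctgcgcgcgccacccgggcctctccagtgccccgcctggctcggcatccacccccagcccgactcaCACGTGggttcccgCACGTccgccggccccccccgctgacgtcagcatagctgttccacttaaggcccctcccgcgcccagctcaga
ENO1, chr1:8878687-8878936, minus strand: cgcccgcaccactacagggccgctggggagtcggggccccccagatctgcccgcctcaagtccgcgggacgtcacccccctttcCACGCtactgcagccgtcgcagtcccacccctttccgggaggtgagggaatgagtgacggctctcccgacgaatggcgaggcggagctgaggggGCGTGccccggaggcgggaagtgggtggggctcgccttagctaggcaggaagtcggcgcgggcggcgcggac
The letters matched 1 time in EGLN1 and KDM3A, 6 times in BNIP3, 5 times in LDHA and 2 times in ENO1. The palindrome CACGTG, which is also the site of MYC and MXI1 family proteins, counts as 2 matches and stood 1 time in BNIP3 and 2 times in LDHA. RefSeq promoters were found for 36 of the 40 genes, and 22 of them, 61.1%, held at least 1 match, against 43.1% of 27303 promoters of the same length. Their median GC content was 69%, against 58% for all promoters, and its part in the share was not tested. The 5 promoters shown were all among those with a match. MXI1, PFKP, P4HA2, PDK1, EGLN3, SLC2A1, ARNT, HK1, PFKM, TPI1, PGAM1, PKM and LDHB, also named below, held none. For VEGFA, BNIP3L, NDRG1 and SLC2A3 no promoter was found. A match describes letters in this window and no binding.

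The labelled cell type was checked first. Of 8 noradrenergic neuroblastoma markers, 6 lay above the filter, among them GATA3 (12.1), PHOX2A (10.7) and DBH (10.1), while TH, the first enzyme of noradrenaline synthesis, was below it (0.73). Above the filter were also 4 of 5 mesenchymal markers, TWIST1 (11.8), COL3A1 (10.9), DCN (8.86) and COL1A1 (8.35). So were 1 of 4 epithelial (EPCAM, 4.53), 2 of 5 blood or endothelial (PECAM1, 4.10, and HBB, 3.92) and 1 of 5 glial markers (S100B, 4.32). Among the markers below it were CDH1, KRT5, KRT14, PTPRC, CDH5, GFAP and AQP4. The median log2 signal per array lay between 3.89 and 4.12. Control probe sets for the 3′ and 5′ ends of GAPDH and ACTB, a measure of how complete the labelled RNA was, differed between groups. The 3′ less 5′ value of GAPDH was 0.81, 0.49 and 0.64 in fibrillar arrays, 0.47 to 0.52 in 24 h controls, 0.66 to 0.80 in oligomeric arrays and 0.77 to 0.83 in 6 h controls, and that of ACTB was 2.48 to 3.06, 2.34 to 2.65, 2.61 to 2.88 and 2.82 to 3.25 in the same groups.

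Fibrillar arrays were set against the 24 h controls to ask whether the fibrils moved the hypoxia programme. VEGFA, the endothelial growth factor and best known HIF target, and EGLN1, the main oxygen-sensing hydroxylase, rose, and 10 of the 11 tested HIF targets had the higher mean with fibrils. The glycolytic genes were spread to both sides, 12 with a higher and 8 with a lower mean, and none passed. The median difference was 0.33 for the HIF targets and 0.06 for the 20 glycolysis and transport genes, against −0.00053 for all genes tested, and 49.9% of all genes had the higher mean. With limma, 2 of the 36 genes passed an adjusted p of 0.05, 5.56% beside 1.19% of all genes. Both passed on the higher side, to which 0.798% of all genes were called. At an unadjusted p below 0.05 there were 16 of the 36, 15 of them higher, beside 14.2% of all genes, and in 13 the groups were fully apart, beside 19.7%. Of these 16, 8 were among the 20 glycolysis and transport genes, 7 of them higher. The 11 HIF targets held 6 and the HIF system 2, all higher.

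VEGFA had log2 signals of 8.76, 9.01 and 8.97 in fibrillar arrays, against 8.47, 8.55 and 8.50 in 24 h controls. The fibrillar arrays all lay above the controls. The difference was 0.41 (SE 0.09, 1.33-fold, adjusted p = 0.0358), and the other 2 kept probe sets of VEGFA differed by 0.45 and 0.32. EGLN1 had log2 signals of 10.14, 10.32 and 10.33 in fibrillar arrays, against 9.92, 10.05 and 9.91 in 24 h controls, again with no overlap. Its difference was 0.31 (SE 0.07, 1.24-fold, adjusted p = 0.0461), with 0.44 and 0.26 in its other 2 kept probe sets. Both calls were close to the threshold, and when the 6 arrays of 24 h were omitted singly, VEGFA and EGLN1 were each called 1 time, without fibrillar replicate 1. Their adjusted p-values reached 0.164 and 0.202 without fibrillar replicate 3, and VEGFA was also lost without 6 h control replicate 1 (0.0535), EGLN1 without any 1 of the 6 h controls (0.0562 to 0.0706) or oligomeric replicate 2 (0.062). Neither was called with probe sets averaged per gene, a constant prior variance, the compared groups alone or the 3′ and 5′ values in the model, and EGLN1 not with quantile normalization or no filter.

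**Figure D1:**
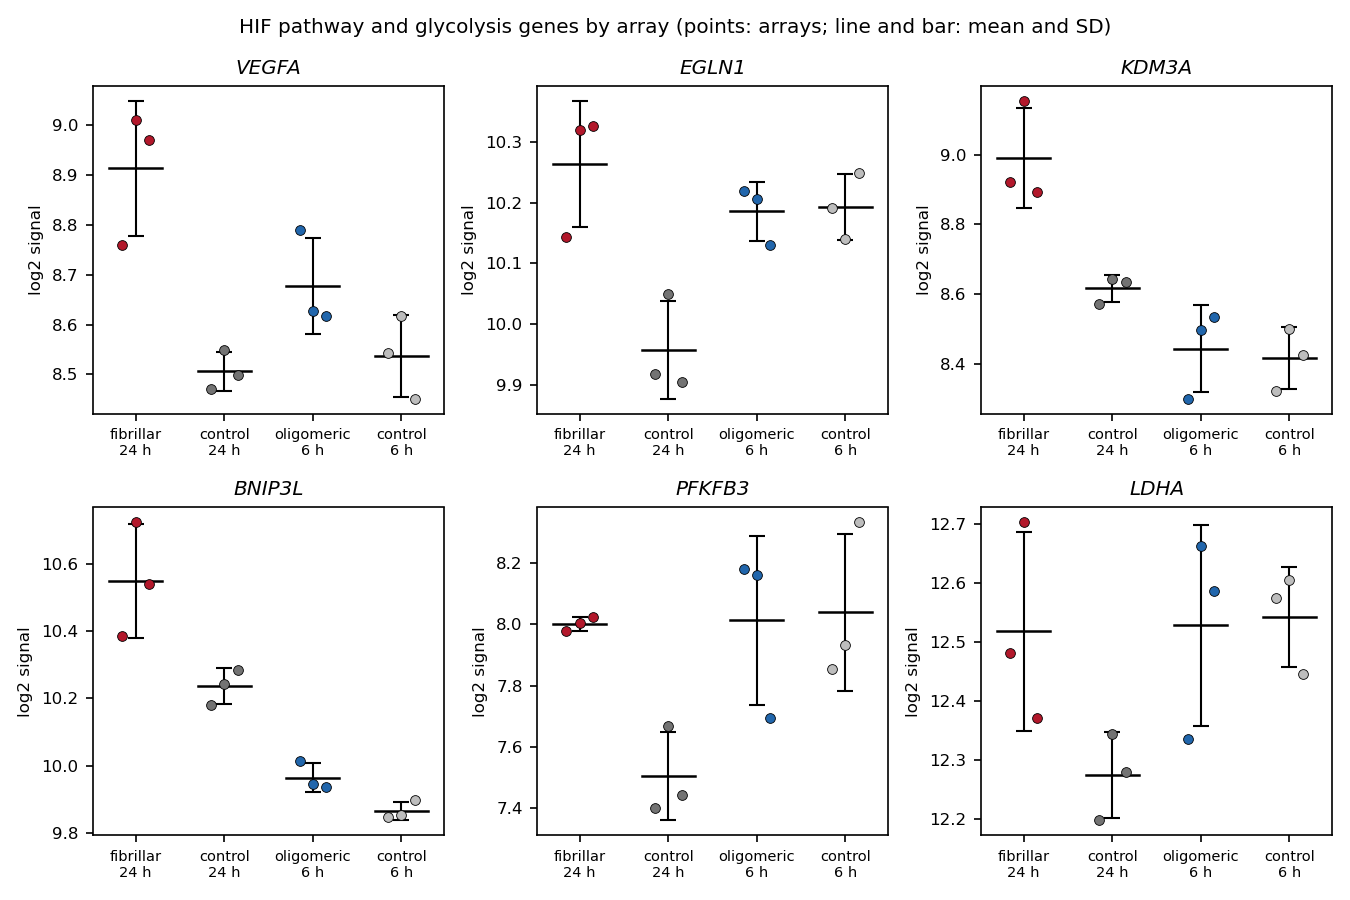
Log2 signal (vertical axes) of VEGFA, EGLN1, KDM3A, BNIP3L, PFKFB3 and LDHA on each of the 12 arrays, by group (horizontal axes). Points are arrays, and the line and bar are the group mean and SD (n = 3). Fibrillar arrays lay above the 24 h controls for all 6 genes, of which VEGFA and EGLN1 passed the test. For VEGFA, EGLN1, PFKFB3 and LDHA the 24 h controls had the lowest mean of the 4 groups.

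The next genes in the order of p did not pass. KDM3A, a histone demethylase whose own reaction needs oxygen, had 8.92, 9.15 and 8.89 in fibrillar arrays, against 8.57, 8.64 and 8.63 in 24 h controls (difference 0.37, SE 0.09, adjusted p = 0.0571). BNIP3L, which marks mitochondria for removal, had 10.38, 10.72 and 10.54 in fibrillar arrays, against 10.18, 10.24 and 10.29 in 24 h controls (0.31, SE 0.08, adjusted p = 0.0608). In both genes the groups did not overlap. Its relative BNIP3 differed by 0.34 (SE 0.10, adjusted p = 0.122), and all 3 of its fibrillar arrays, at 10.17, 10.63 and 10.26, lay above the controls, at 10.02, 10.08 and 9.95. The collagen prolyl hydroxylase P4HA2 (0.46, SE 0.16), the ankyrin repeat gene ANKRD37 (0.33, SE 0.12), PDK1, the kinase that holds pyruvate back from the mitochondria (0.48, SE 0.23), NDRG1 (0.31, SE 0.17) and P4HA1 (0.19, SE 0.10) had adjusted p-values from 0.184 to 0.457. PDK1 was uneven between arrays: 7.88, 9.16 and 8.10 in fibrillar arrays, against 7.69, 8.13 and 7.85 in 24 h controls, so that replicate 2 alone lay above all controls by a wide gap. MXI1, a MYC antagonist, differed by 0.07 (95% confidence interval −0.12 to 0.26). ADM, the vasodilator peptide adrenomedullin, was the 1 gene of these 11 targets with the lower mean (−0.12, interval −0.52 to 0.27). EGLN1, EGLN3, PGK1 and SLC2A1, which HIF also raises, were not counted among the 11 and are given apart. Fibrillar and control arrays were fully apart on the higher side for 6 of the 11 HIF targets, 54.5% beside 10.9% of all genes.

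In the HIF system itself the subunits gave no call. HIF1A had 12.16, 11.96 and 12.14 in fibrillar arrays, against 11.84, 11.84 and 11.96 in 24 h controls (0.21, SE 0.07, adjusted p = 0.175). EPAS1, the other α subunit, differed by −0.02 (interval −0.24 to 0.21) and ARNT by −0.14 (interval −0.52 to 0.23). EGLN3, a hydroxylase that HIF usually raises more strongly than EGLN1, had the lower mean, with 6.13, 6.70 and 6.36 in fibrillar arrays against 6.89, 6.58 and 6.79 in 24 h controls (−0.36, SE 0.17, adjusted p = 0.371). Its other kept probe set differed by −0.45. The 2 feedback genes thus had means on opposite sides, of which the call of EGLN1 alone passed.

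**Figure D2:**
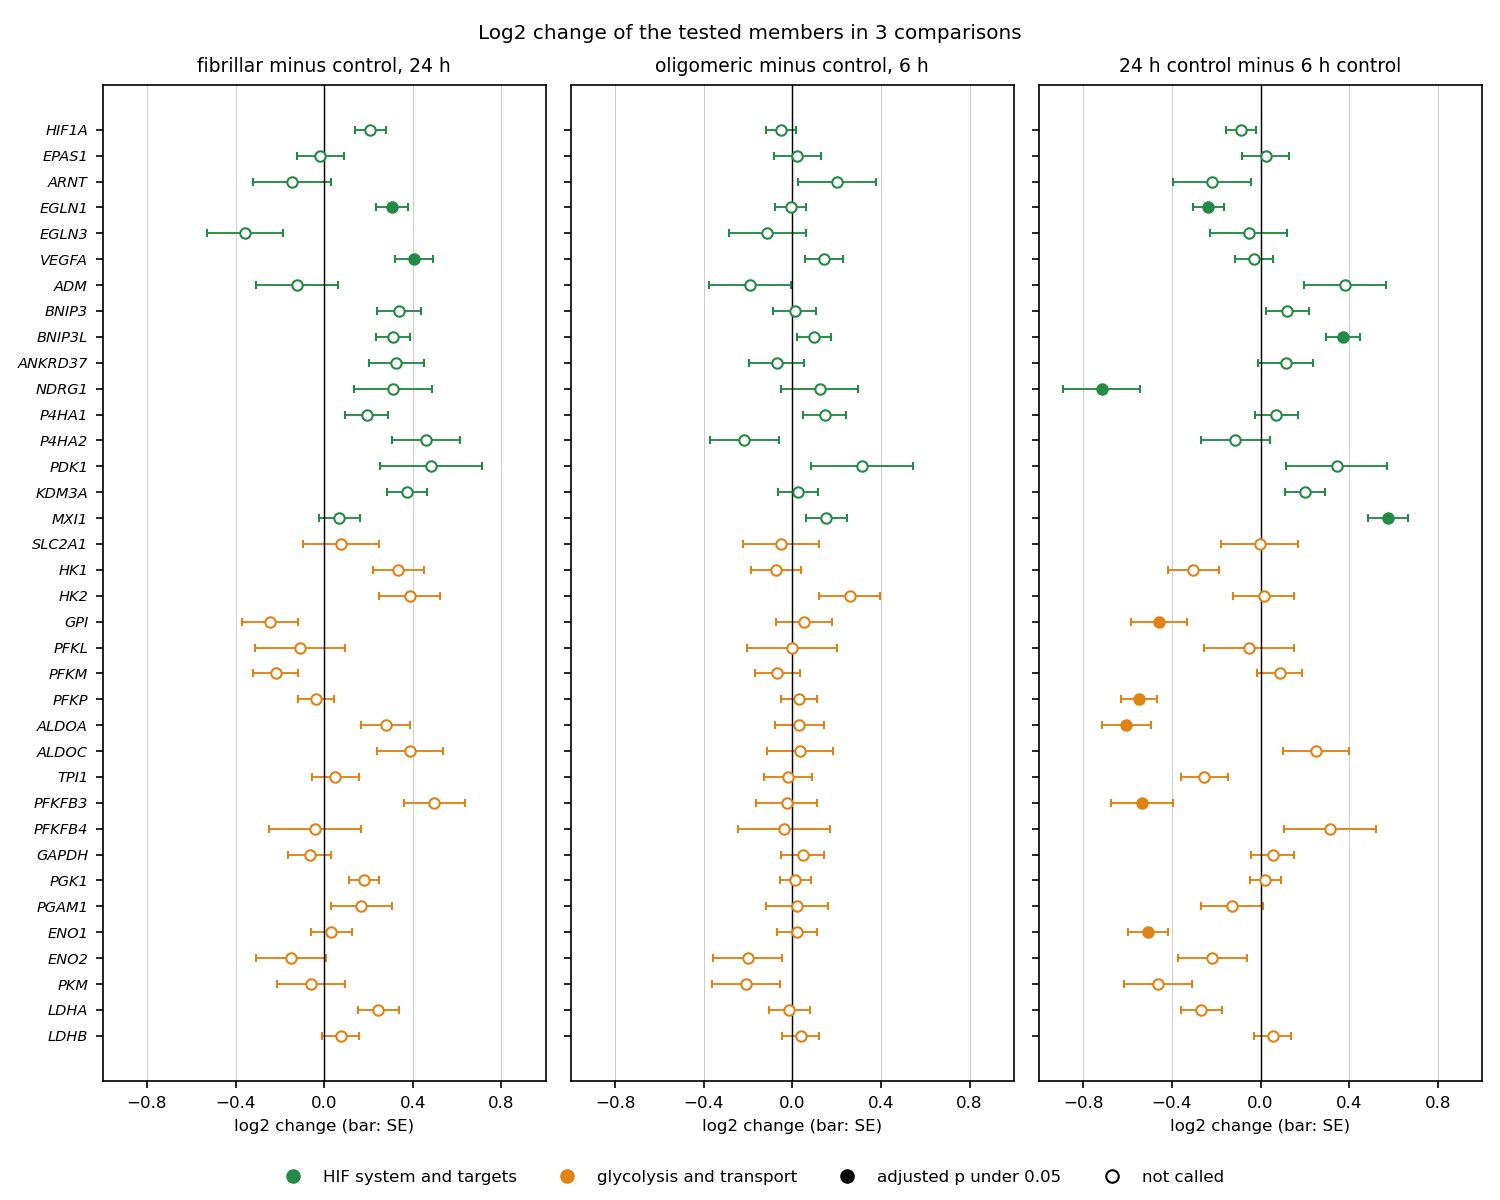
Log2 change (horizontal axes; bars are SE) of the 36 tested genes, 1 per row, for fibrillar minus control at 24 h, oligomeric minus control at 6 h, and 24 h control minus 6 h control. Filled points passed an adjusted p of 0.05. With fibrils 2 genes are filled and 10 of 11 HIF targets lie right of 0. With oligomers no gene is filled. Between the controls 9 are filled, 5 of them glycolytic and all 5 left of 0.

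Along glycolysis the isoenzymes were read pair by pair. At the entry, the hexokinases HK1 (0.34, SE 0.11, adjusted p = 0.188) and HK2 (0.39, SE 0.14, adjusted p = 0.204) had the higher mean with fibrils, but the other 2 kept probe sets of HK2 differed by −0.45 and −0.13. GPI, the isomerase of the next step, had 7.46, 7.70 and 7.39 in fibrillar arrays against 7.82, 7.72 and 7.75 in 24 h controls, fully apart on the lower side (−0.25, SE 0.13, adjusted p = 0.405). The phosphofructokinases gave −0.11 for PFKL, −0.22 for PFKM and −0.04 for PFKP. PFKFB3, which makes the activator of phosphofructokinase, had the largest difference of the 36 genes, with 7.98 to 8.02 in the 3 fibrillar arrays against 7.40, 7.67 and 7.44 in 24 h controls (0.50, SE 0.14, adjusted p = 0.104). Its isoform PFKFB4 differed by −0.04 (interval −0.48 to 0.39). The aldolases ALDOA (0.28, SE 0.11) and ALDOC (0.39, SE 0.15) both had fibrillar arrays above all controls, with adjusted p-values of 0.258 and 0.24.

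In the second part of the pathway, LDHA, the lactate-forming subunit of lactate dehydrogenase, had 12.48, 12.70 and 12.37 in fibrillar arrays, against 12.20, 12.34 and 12.28 in 24 h controls (0.24, SE 0.09, adjusted p = 0.234). The other subunit, LDHB, differed by 0.07 (interval −0.10 to 0.25). PGK1, an early payoff enzyme and HIF target, differed by 0.18 (SE 0.07, adjusted p = 0.245), with the groups apart. The remaining enzymes had intervals that held 0. The differences were 0.05 for TPI1, −0.06 for GAPDH (interval −0.27 to 0.14) and 0.17 for PGAM1 (−0.13 to 0.46). ENO1 differed by 0.03, ENO2 by −0.15 (−0.48 to 0.18) and PKM by −0.06 (−0.39 to 0.27). The other 2 kept probe sets of ENO1 differed by −0.30 and 0.28. The glucose transporter SLC2A1, a classic HIF target, differed by 0.08 (interval −0.29 to 0.44). Of the 20 genes, 5 had fibrillar arrays fully above the controls, 25% beside 10.9% of all genes, and 1 fully below, 5% beside 8.73%.

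The 3 fibrillar arrays were not alike. Each gene was set against the mean of its 24 h controls, and the median over the 11 HIF targets was 0.15, 0.51 and 0.28 in fibrillar replicates 1, 2 and 3, against −0.05, 0.03 and 0.03 in the 24 h controls. All 3 arrays lay above the controls. Over the 20 glycolysis and transport genes the medians were 0.04, 0.28 and 0.0014 in the fibrillar arrays, against −0.04, −0.0040 and 0.0068 in the 24 h controls, so that fibrillar replicate 2 was high and replicate 3 lay inside the control range. The GAPDH 3′ less 5′ values of fibrillar replicates 1, 2 and 3 were 0.81, 0.49 and 0.64, against 0.47 to 0.52 in 24 h controls. Replicate 2, the highest for both groups of genes, thus had the lowest value of the fibrillar arrays. Replicate 1, with the highest value, had the lowest HIF target median. A link between these values and the medians was not tested. Without fibrillar replicate 2 the median difference of the HIF targets was 0.22 and that of the glycolysis and transport genes −0.04. With the mean of the GAPDH and ACTB values added to the model the 2 medians were 0.42 and 0.20, and BNIP3 was the 1 gene called.

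**Figure D3:**
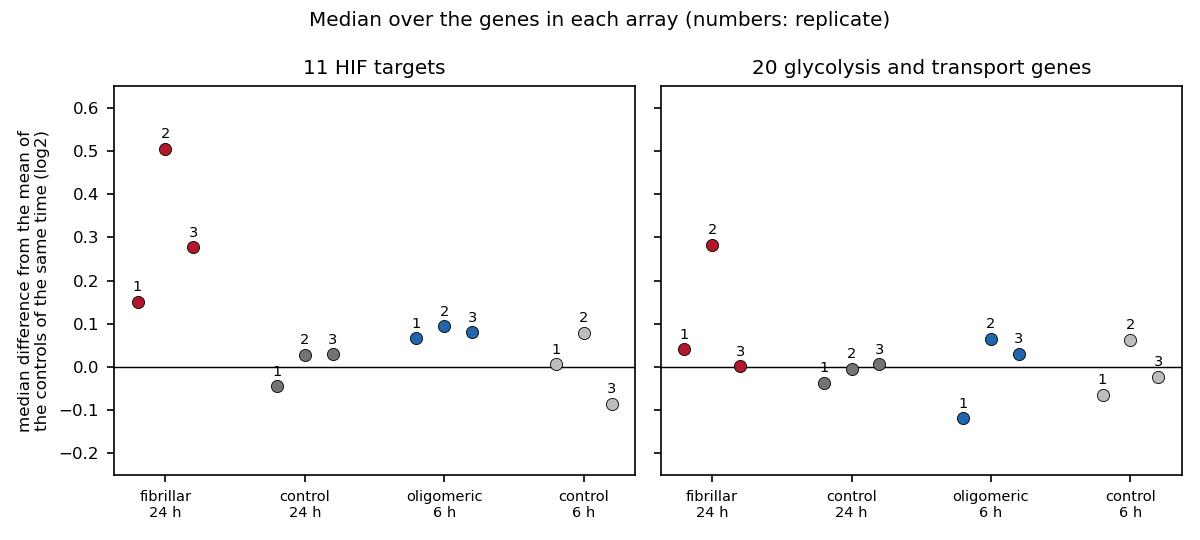
Median over 11 HIF targets (left) and over 20 glycolysis and transport genes (right) of the difference, on the log2 scale, from the mean of the controls of the same time (vertical axis), for each array by group (horizontal axis). Points are arrays and numbers are replicates. The HIF target medians of the fibrillar arrays, 0.15 to 0.51, lie above those of the 24 h controls, and fibrillar replicate 2 is the highest in both panels.

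Genes around the pathway were read from lists beside the 40. Of 21 tested further HIF targets, 18 had the higher mean with fibrils, the median difference was 0.10, and TFRC, the transferrin receptor that brings iron into the cell, rose by 0.45 (SE 0.10, adjusted p = 0.0426), with a mean of 11.51 in fibrillar arrays and 11.06 in 24 h controls. Of 12 regulators of HIF, such as VHL, HIF1AN and CITED2, none passed, and the median was −0.02. None passed either among 6 genes of the pentose phosphate pathway (median 0.01), 18 of pyruvate entry and the tricarboxylic acid cycle (0.06), 10 of glycogen and glucose formation (−0.11) and 6 of glucose sensing (0.12). At an unadjusted p under 0.05 these 4 lists held 0, 3, 1 and 0 genes and the HIF regulators 1, in the same limma fit, while the further HIF targets held 5 of 21, beside 14.2% of all genes. The call of TFRC made 4.76% of that list, beside 1.19% of all genes.

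Oligomeric arrays were set against the 6 h controls with the same question for the smaller aggregates. No gene passed the test: limma called 0 of the 36 genes and 0 of 11774 overall (0%), and 0 of the 36 had an unadjusted p below 0.05, beside 2.78% of all genes. The median difference was 0.10 for the HIF targets and 0.0054 for glycolysis and transport, against −0.0046 for all genes, and the mean was higher with oligomers for 20 of the 36 and for 48.2% of all genes. VEGFA had 8.79, 8.63 and 8.62 in oligomeric arrays, against 8.54, 8.62 and 8.45 in 6 h controls (0.14, SE 0.09, interval −0.04 to 0.32). The lowest oligomeric array lay just above the highest control. P4HA1 (0.15, interval −0.06 to 0.35) and BNIP3L (0.10, interval −0.06 to 0.26) were also fully apart on the higher side, so 3 of 36 genes were, 8.33% beside 3.6% of all genes. All 3 were HIF targets, 27.3% of the 11, of which 8 had the higher mean with oligomers. The other kept probe set of BNIP3L went the other way (−0.22), while those of VEGFA differed by 0.28 and 0.36. None of the 36 was apart on the lower side, where 3.76% of all genes were (7.36% in either direction). EGLN1 had means of 10.19 ± 0.05 in oligomeric arrays and 10.19 ± 0.05 in 6 h controls (SD, n = 3 each), a difference of −0.0078 (interval −0.16 to 0.14). HK2 (0.26, SE 0.14) and PDK1 (0.31, SE 0.23) had the largest differences upward, and P4HA2 (−0.22, SE 0.16), PKM (−0.21, SE 0.15) and ENO2 (−0.20, SE 0.16) the largest downward, and each interval held 0. The glycolytic enzymes with the narrowest intervals were PGK1 (−0.13 to 0.16), PFKP (−0.14 to 0.20) and LDHB (−0.14 to 0.21).

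Whether the fibrillar and oligomeric responses differed was tested as the difference of the 2 differences. With limma 0 of the 36 genes passed, beside 0.0425% of all genes (0.00849% higher and 0.034% lower), and 9 had an unadjusted p below 0.05, all with the larger value for fibrils, 25% beside 8.53% of all genes. The difference was above 0 for 26 of the 36 genes and for 51.8% of all genes. EGLN1 came first (0.31, SE 0.10, adjusted p = 0.322), from 0.31 with fibrils and −0.0078 with oligomers. P4HA2 had the largest difference of the responses (0.68, SE 0.22, adjusted p = 0.334), from 0.46 with fibrils and −0.22 with oligomers. Then came KDM3A (0.35), HIF1A (0.26), PFKFB3 (0.52), HK1 (0.41), BNIP3 (0.33), ANKRD37 (0.40) and VEGFA (0.27), with adjusted p-values from 0.437 to 0.554. So the call of VEGFA and EGLN1 with fibrils and its lack with oligomers is not shown to be a difference between them.

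The controls of 24 h and 6 h were compared to see how the same genes stood in the controls of the 2 labelled times. Of the 20 glycolysis and transport genes, 5 fell in the 24 h controls, 25% beside 7.92% of all genes, 0 rose and 15 did not pass. Their means were lower in 13 and higher in 7, and 1 of the 5, ENO1, depended on the probe set, as given below. The HIF targets divided, with MXI1 and BNIP3L higher and NDRG1 lower. EGLN1 fell. In all 2 rose and 7 fell among the 36, so 25% were called, beside 11.7% of all genes (3.76% higher and 7.92% lower), and the median difference was −0.17 for glycolysis and transport and 0.12 for the HIF targets, against −0.02 for all genes. Means were higher at 24 h for 16 of the 36 genes, beside 47.4% of all genes. An unadjusted p below 0.05 was found for 14, beside 26.6%, and 18 were fully apart, beside 32.6%.

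PFKP, the platelet-type phosphofructokinase, had 9.04, 8.97 and 9.11 in 24 h controls, against 9.50, 9.65 and 9.61 in 6 h controls (−0.55, SE 0.08, adjusted p = 0.000523). ALDOA, the main aldolase, had 10.12, 10.17 and 10.21 in 24 h controls, against 10.70, 10.95 and 10.67 in 6 h controls (−0.61, SE 0.11, adjusted p = 0.00241). Neither gene's groups overlapped, and the other 2 kept probe sets of ALDOA differed by −0.58 and −0.34. By the suffix of their names, all 3 probe sets of ALDOA may also bind other transcripts. ENO1, the main enolase, had 11.33, 11.36 and 11.24 in 24 h controls, against 11.71, 11.90 and 11.85 in 6 h controls (−0.51, SE 0.09, adjusted p = 0.00218). Its probe sets went against each other, however: the other 2 kept ones differed by 0.50 and 0.45, and the mean of the 3 differed by 0.15 (adjusted p = 0.473). GPI fell by 0.46 (SE 0.13, adjusted p = 0.026), with 7.82, 7.72 and 7.75 in 24 h controls against 8.26, 8.33 and 8.07 in 6 h controls. PFKFB3 fell by 0.53 (SE 0.14, adjusted p = 0.02), with 7.40, 7.67 and 7.44 in 24 h controls against 7.85, 7.93 and 8.33 in 6 h controls.

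Among the glycolytic genes with a lower mean that did not pass were PKM, the pyruvate kinase of most tissues (−0.46, SE 0.15, adjusted p = 0.0633, but −0.03 in its other kept probe set), LDHA (−0.27, SE 0.09, adjusted p = 0.0738), HK1 (−0.30, SE 0.11, adjusted p = 0.0997) and TPI1 (−0.25, SE 0.11, adjusted p = 0.14). The isoenzymes of LDHA and HK1 were at 0.05 for LDHB (interval −0.12 to 0.23) and 0.01 for HK2 (interval −0.27 to 0.30). ALDOC (0.25, interval −0.06 to 0.57), PFKFB4 (0.31, −0.12 to 0.75) and PFKM (0.09, −0.13 to 0.30) had the higher mean at 24 h. ENO2 (−0.22, interval −0.55 to 0.11) and PFKL (−0.05, −0.48 to 0.38) had the lower mean. All these intervals held 0. GAPDH, often used as an unchanging reference, differed by 0.06 (interval −0.15 to 0.26) and PGK1 by 0.02 (interval −0.13 to 0.17). The other kept probe sets of PGK1 ran from −0.19 to 0.94, the latter in a set with a mean of only 4.70. The second brightest set of PGK1, with a mean of 10.28, differed by 0.41. So the estimates for enzymes of 1 linear pathway ran from −0.61 for ALDOA, which was called, to 0.25 for its isoform ALDOC, which was not. Of the 20 genes, 8 had 24 h controls fully below the 6 h controls, 40% beside 18.9% of all genes, and 2 fully above, 10% beside 13.7%.

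**Figure D4:**
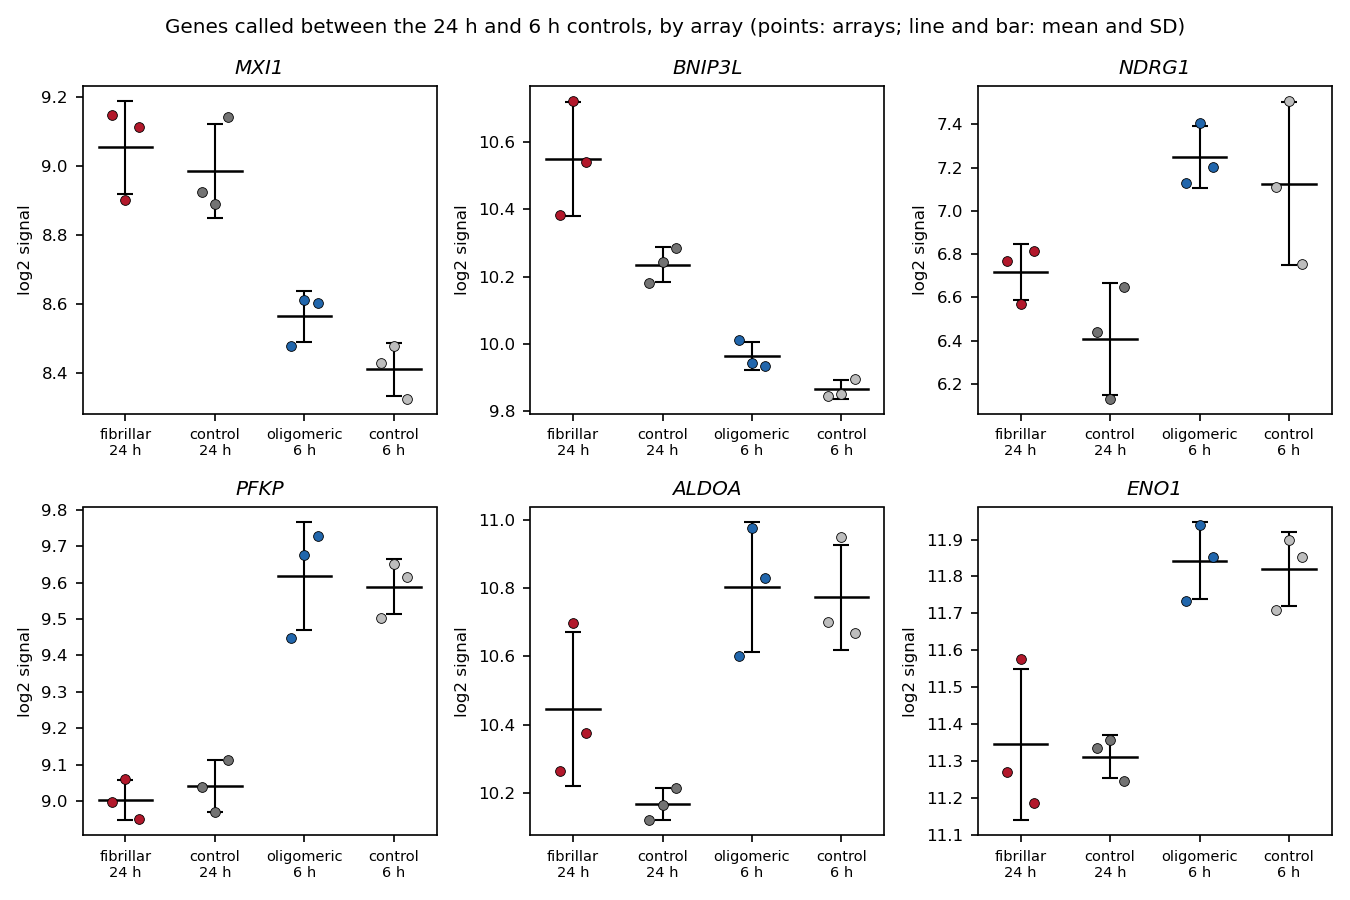
Log2 signal (vertical axes) of MXI1, BNIP3L, NDRG1, PFKP, ALDOA and ENO1 on each of the 12 arrays, by group (horizontal axes). Points are arrays, and the line and bar are the group mean and SD (n = 3). The 24 h controls lie above the 6 h controls for MXI1 and BNIP3L and below them for the other 4. The treated means lie nearer to the controls of their own hour, though ALDOA in fibrillar replicate 2, at 10.70, is level with a 6 h control.

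Among the HIF targets, MXI1 had 8.92, 8.89 and 9.14 in 24 h controls, against 8.43, 8.48 and 8.32 in 6 h controls (0.58, SE 0.09, 1.49-fold, adjusted p = 0.000854). BNIP3L had 10.18, 10.24 and 10.29 in 24 h controls, against 9.85, 9.85 and 9.90 in 6 h controls (0.37, SE 0.08, adjusted p = 0.00545). Its other kept probe set differed by 0.05. NDRG1, a stress and differentiation gene, fell by 0.72 (SE 0.17, adjusted p = 0.0142), with 6.44, 6.13 and 6.65 in 24 h controls against 7.11, 7.51 and 6.75 in 6 h controls. So 2 genes that HIF is known to raise moved up and another moved down, while VEGFA did not pass (−0.03, interval −0.21 to 0.15). EGLN1 fell by 0.24 (SE 0.07, adjusted p = 0.0404). Of the 11 HIF targets, 6 were fully apart on the higher side, 54.5% beside 13.7% of all genes, and 1 on the lower side, 9.09% beside 18.9%.

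The fibrillar comparison and this one share the 24 h controls, so the values of the 4 groups are given side by side for 4 genes in which those controls had the lowest mean, chosen after their values were seen. EGLN1 had means of 10.26 ± 0.10 in fibrillar arrays, 9.96 ± 0.08 in 24 h controls, 10.19 ± 0.05 in oligomeric arrays and 10.19 ± 0.05 in 6 h controls (SD, n = 3 each). PFKFB3 had 7.98 to 8.02 in fibrillar arrays, 7.40 to 7.67 in 24 h controls, 7.69 to 8.18 in oligomeric arrays and 7.85 to 8.33 in 6 h controls. For LDHA the means in the same order were 12.52 ± 0.17, 12.27 ± 0.07, 12.53 ± 0.17 and 12.54 ± 0.08. The fibrillar means of these 3 genes stood near those of both 6 h groups. Not every gene with its lowest mean in the 24 h controls did so. In the same order, ENO1 had means of 11.34, 11.31, 11.84 and 11.82, and ALDOA 10.45, 10.17, 10.80 and 10.77. NDRG1 had 6.72, 6.41, 7.25 and 7.12, and TPI1 11.12, 11.07, 11.31 and 11.33. HK1 (8.61, 8.28, 8.51 and 8.58) and PGAM1 (11.81, 11.64, 11.79 and 11.77) stood near the 6 h groups. HIF1A (12.09, 11.88, 11.92 and 11.97) lay above them. VEGFA also had its lowest mean in the 24 h controls, with 8.91 ± 0.14 in fibrillar arrays, 8.51 ± 0.04 in 24 h controls, 8.68 ± 0.10 in oligomeric arrays and 8.54 ± 0.08 in 6 h controls.

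Around the pathway, between the same controls, TFRC (0.32), RORA (0.55), DDIT4, an inhibitor of growth signalling (0.44) and TMEM45A (0.26) rose among 21 further HIF targets, 19% beside 3.76% of all genes, and none was called lower. Means were higher in 15 of the 21 and lower in 6, beside 47.4% higher in all genes. Fully apart on the higher side were 8, 38.1% beside 13.7% of all genes, and on the lower side 3, 14.3% beside 18.9%. In the limma fit an unadjusted p below 0.05 was found for 9, beside 26.6% of all genes. Of these, 7 had the higher and 2 the lower mean. ARNT2, a neural relative of ARNT, fell by 0.55, the branching enzyme of glycogen GBE1 by 0.53, the transketolase TKT by 0.26, and citrate synthase CS by 0.52, while PDK4, a relative of PDK1, rose by 0.52. OGDH fell by 1.45, with a mean of 3.50 in 24 h controls, below the filter, and 4.95 in 6 h controls. The adjusted p-values of all these named genes ran from 0.00156 for GBE1 to 0.0478 for TFRC. Called between the controls were 1 of 12 HIF regulators (8.33%) and 1 of 10 genes of glycogen and glucose formation (10%). In the pentose phosphate pathway 1 of 6 was called (16.7%), and in pyruvate entry and the tricarboxylic acid cycle 3 of 18 (16.7%). None of 6 glucose sensing genes was called, and of all genes 11.7% were.

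The 3′ less 5′ values moved with this comparison and the groups did not overlap in them, at 0.47 to 0.52 for GAPDH in 24 h controls against 0.77 to 0.83 in 6 h controls. With the mean of the GAPDH and ACTB values as a covariate 6 genes were called (MXI1, GPI, PFKP, ALDOA, TPI1 and ENO1), the glycolysis and transport median was −0.38, and that of the HIF targets was −0.13, which turns its direction, as array median centring also did (−0.0093). When single arrays of these controls were left out, MXI1, BNIP3L, PFKP, ALDOA and ENO1 were called in 6 of 6 fits, NDRG1 in 4, PFKFB3 in 3, and GPI and EGLN1 in 1. NDRG1 was lost without 6 h control replicate 2 (adjusted p = 0.0839) or 24 h control replicate 2 (0.0598), PFKFB3 without 6 h control replicate 3 (0.0927) or 24 h control replicate 1 (0.0808) or 3 (0.0747), GPI without any of these arrays but 6 h control replicate 3 (0.0557 to 0.108), and EGLN1 without any of them but 24 h control replicate 2 (0.0664 to 0.14), and also without oligomeric replicate 2 (0.0501). Under other settings BNIP3L was lost with median centring (0.24, adjusted p = 0.0518) and with probe sets averaged per gene (0.21, adjusted p = 0.156). EGLN1 was lost with quantile normalization, no filter, averaged probe sets or a constant prior variance (adjusted p = 0.0532 to 0.0899), and GPI (0.0677) and PFKFB3 (0.0627) with a constant prior variance. Because each time is a separate set of arrays with no date in the labels, hours and handling cannot be told apart.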

How the data were processed

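RNA of SH-SY5Y cells was measured on 12 Affymetrix 3′ expression arrays with 54675 probe sets. The deposited log2 signals had been computed by the authors. The submitters' processing notes name MAS5, with no version. The linear signal's trimmed mean, from 2% to 98%, is 100.0 on all 12 arrays, which shows a common scaling target, and no normalization was added. Of the probe sets, 62 were controls, 41091 carried 1 symbol, 1801 several and 11721 none. Symbols came from the platform annotation and were updated through RefSeq gene IDs for 41037 probe sets.

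Probe sets with a mean at or above the median (log2 3.78) were kept, 27307 in all, and each gene was read from its brightest kept probe set. A group-means model over the 12 arrays was fitted to 11774 genes in R 4.3.3 by limma 3.58.1, with a prior variance following the mean level. A gene was called at a p under 0.05 after Benjamini-Hochberg adjustment, and intervals are 95%. The procedure was tested on simulated data. The members, lists and alternatives were chosen with earlier results of these data known. All members could be named, and from the other lists the called genes, at most 4 a list. Alternatives were quantile normalization, median centring, other filters, the mean of probe sets, a constant prior variance, array weights, the compared groups alone, the replicate block, log2 of the signal plus 16, the 3′ less 5′ covariate, and each array left out.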

Additional observations from a re-analysis of the deposited data

How the results depend on the processing

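With fibrils, where 2 of the 36 genes were called, quantile normalization, no filter and the 3′ less 5′ covariate gave 1, array weights and a filter at the 75th percentile 4 and median centring 6, all higher. The mean of probe sets, a constant prior variance and the compared groups alone gave 0. The cause was not tested. With single arrays left out the count ran from 0 to 3. The median over the 36 genes was 0.17, between 0.09 and 0.21 with an array left out, and 0.26 with the covariate. For oligomers and for the difference of the responses the count was 0 under every alternative. Between the controls 9 were called, and 6 to 10 with an array left out. Median centring, which moved the median of all genes between these controls from −0.02 to −0.15, gave 1 higher and 11 lower, against 2 and 7. The median over the 36 genes was −0.04, between −0.08 and −0.0094 with an array left out, −0.17 with centring, −0.18 with the covariate and, reversed, 0.026 with the mean of probe sets, where ENO1 was also reversed (0.15). With the replicate block 3 genes were called with fibrils and 11 between the controls, and no call was lost. The labels give no pairing, and the deviations of same-numbered treated and control arrays from their group means correlated at −0.02 to 0.09. The numbers were therefore not taken as pairing, although at 24 h each array correlated best with its own number. The array signal over background is not known here, so the filter stands for it.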
